A study of Mus musculus with 8 samples.

Results

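Gria2 and Gria3 encode subunits of the AMPA receptor, and 31 sites in their transcripts were listed among 2055 sites at which RNA methylation differed between aged and young mouse cortex cells. The sites were those that the authors' deposited table assigns to either gene, 25 to Gria2 and 6 to Gria3. By transcript region, 18 Gria2 sites lay in the 3' UTR, 5 in coding sequence and 2 in the 5' UTR. Of the Gria3 sites, 2 lay in the 3' UTR and 4 in coding sequence. In both genes the 3' UTR sites were marked in a smaller share of aged than of young cells, with 1 exception in Gria2, while coding sites were marked in a larger share of aged cells.

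AMPA receptors are glutamate-gated cation channels that carry most of the fast excitatory transmission in the brain. The subunit encoded by Gria2 limits calcium entry through the channel, because its transcript is recoded by A-to-I editing in the pore region, and the subunit encoded by Gria3 often assembles with it. Each subunit gene has a pair of alternative exons, known as flip and flop, that shape how the channel desensitises. N6-methyladenosine (m6A) is a methyl mark on adenosines of mRNA that is frequent near stop codons and in 3' UTRs, and many transcripts of synaptic proteins carry it.

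The aged cells came from the cortex of mice with the genotype APOBEC1-YTH, aged 12 to 14 months when treatment started. Tamoxifen was given for 5 days, once every 24 h at 20 mg/kg, and tissue was taken 7 days after the last dose. APOBEC1-YTH is a cytidine deaminase joined to an m6A-binding domain, so that a C-to-U change beside a methylated A marks m6A in the RNA of 1 cell (scDART-seq). The 8 aged libraries, 2 sublibraries sequenced on 4 lanes each, are not separate animals. The young cells come from another deposited series, and the sources used here do not state their age, treatment or library kit, the promoter of the transgene or the number of mice. The sample protocols describe papain-dissociated, fixed whole cells and polyA RNA, whereas the series' design text describes sorted neuronal nuclei and total RNA, so the starting material is described in conflicting ways.

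All values below are taken or computed from the authors' deposited table, which pools the 846 aged and 2623 young cells into 1 value per site and age. No value therefore has a replicate error and no site was tested again. Shares of methylated cells are given with exact binomial (Clopper-Pearson) 95% intervals, which cover counting error only. Read depth per site is not in the table, and a cell without reads at a site counts as unmethylated, so that fewer cells with usable RNA and less methylation cannot be told apart. The table lists sites with a difference only: no site had an absolute log2 ratio of the means under 0.58, nor fewer than 25 methylated cells over both ages, and 0.0433 was the largest adjusted p of the 31 sites in the authors' deposited table. Of marker genes for cortical cell types, 2 of 3 for excitatory neurons (Camk2a and Slc17a7) had a listed site, against 0 of 3 each for inhibitory neurons, astrocytes and microglia. A listed site does not measure expression, so the cell types could not be checked.

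The sequences around the sites that carry the results are given 5' to 3' on the strand of the gene (mm10, GRCm38), with the edited C of each listed site in capitals. The first line holds the Gria2 site with the most methylated cells beside its neighbours, and the next a triplet of sites further into the 3' UTR.
Gria2 3' UTR, chr3:80688214-80688241, minus strand: agcacacttgaCatCaaCtgcatcaaga
Gria2 3' UTR, chr3:80688118-80688146, minus strand: ttttcacagaCaaaCtggCttttaaataa
Gria2 3' UTR, chr3:80688166-80688186, minus strand: gaaaaaaaaaCatttaaaata
Gria3 3' UTR, chrX:41676524-41676552, plus strand: agacttgcgaCaatgcaaaCcatcattga
The last 2 of these lines show the exceptional Gria2 site, marked in similar shares of aged and young cells, and both 3' UTR sites of Gria3. The coding sites shown next are those with the largest increase in each gene by percentage points, the site that shares an alternative exon with 1 of them, and a triplet in exon 2 of Gria3.
Gria2 exon 14, chr3:80691387-80691407, minus strand: actgaatgaaCaaggcctgtt
Gria2 exon 14, chr3:80691334-80691354, minus strand: aaggagagtgCggcagcgggg
Gria3 exon 9, chrX:41596689-41596709, plus strand: cctccgagaaCaggaccatcg
Gria3 exon 2, chrX:41402855-41402884, plus strand: tgcagttataCaaCaccaaCcagaacacca

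Gria2 lies on the minus strand of chromosome 3 (80681450 to 80802835), and the highest-ranked transcript, Gria2-201, has 16 exons and a 3' UTR of 7268 bases. Its 18 listed 3' UTR sites all lay within 246 bases, from 405 to 650 bases after the stop codon. Another annotated coding transcript, Gria2-202, ends 273 bases past the last of these sites, and the nonsense-mediated decay transcript Gria2-203 ends 28 bases past it, while Gria2-201 runs on for 6618 bases. Sites at most 10 bases apart formed 4 groups that held 14 of the 18 sites, so neighbouring sites share reads and are not independent.

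The Gria2 site with the most methylated cells lay 494 bases after the stop codon, at position 80688224 in exon 16. It was marked in 35 of 846 aged cells, 4.14% (2.90 to 5.71), and in 916 of 2623 young cells, 34.9% (33.1 to 36.8). Within marked cells the mean C-to-U was 42.5% in aged cells and 20.9% in young cells. Averaged over all cells, C-to-U was 1.76% in aged cells and 7.28% in young cells, a 4.14-fold lower value. The adjusted p in the authors' deposited table was 1.03e-32. The share of marked cells was thus 8.44-fold lower in aged cells while the C-to-U per marked cell was higher, and of all 2055 sites 9 had a larger decrease of the mean in percentage points.

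The neighbours of that site followed it. At 488 bases, 2.36% (1.45 to 3.63) of aged cells and 21.1% (19.6 to 22.7) of young cells were marked, with 60.3% C-to-U within aged and 15.3% within young marked cells. At 491 bases, where the edited C does not follow an A, 2.96% (1.92 to 4.33) of aged and 18.1% (16.6 to 19.6) of young cells were marked. The 3 sites, each 3 bases from the next, all had lower shares and higher C-to-U per marked cell in aged cells.

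The largest group of closely spaced sites held 5, between 628 and 650 bases after the stop codon. At 628 bases 1.89% (1.08 to 3.05) of aged cells and 21.1% (19.6 to 22.7) of young cells were marked, and the mean over all cells was 0.809% C-to-U in aged and 3.59% in young cells. The other 4 sites, at 634, 640, 645 and 650 bases, were marked in 2.01% to 2.36% of aged cells and in 9.87% to 12.6% of young cells. All 5 sites were lower in aged cells by share and by mean, and their C-to-U within marked cells was higher in aged cells. At the triplet of sites 582 to 590 bases after the stop codon the aged shares were 2.01%, 1.06% and 0.709%, against young shares of 16.97%, 12.2% and 8.58%. The 12.1-fold lower share at 590 bases was the largest fold difference of the share among the 18 sites. It rests on 6 aged and 225 young marked cells, and the edited C there does not follow an A.

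The remaining sites stood apart or at the 5' end of the stretch. At 405, 423, 426 and 430 bases after the stop codon 1.65%, 1.18%, 2.72% and 0.946% of aged cells were marked, against 7.97%, 8.39%, 11.3% and 5.72% of young cells. At 474 bases the shares were 0.946% in aged and 8.43% in young cells, and at 510 bases 2.60% in aged and 14.7% in young cells. The site at 430 bases had the largest fold decrease of the mean in the Gria2 3' UTR, to 0.0806% in aged cells against 1.09% in young cells, since its C-to-U within marked cells was also lower, 8.53% in aged and 19.1% in young cells. That aged value rests on 8 marked cells.

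At 17 of the 18 sites the share was lower in aged cells and its interval lay below that of young cells. Of all listed 3' UTR sites 27.3% had such a call, and 50.8% had a lower share with or without overlap. Among the 336 with more than 60 marked cells, as all 18 Gria2 sites had, 181 had such a call and 70.2% a lower share. That number sums both ages and most cells were young, so choosing sites by it favours a lower share in aged cells. The exception lay 542 bases after the stop codon, at position 80688176, where the C follows 9 consecutive A bases. It was marked in 94 aged cells, 11.1% (9.07 to 13.4), and in 279 young cells, 10.6% (9.48 to 11.9), so the intervals overlapped. Its C-to-U within marked cells was 4.40% in aged cells and 8.25% in young cells, in each age the lowest of the 18 sites. The mean over all cells was nevertheless lower in aged cells, at 0.489% against 0.878% in young cells. The authors' deposited table gives it an adjusted p-value of 4.19e-06.

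**Figure D1:**
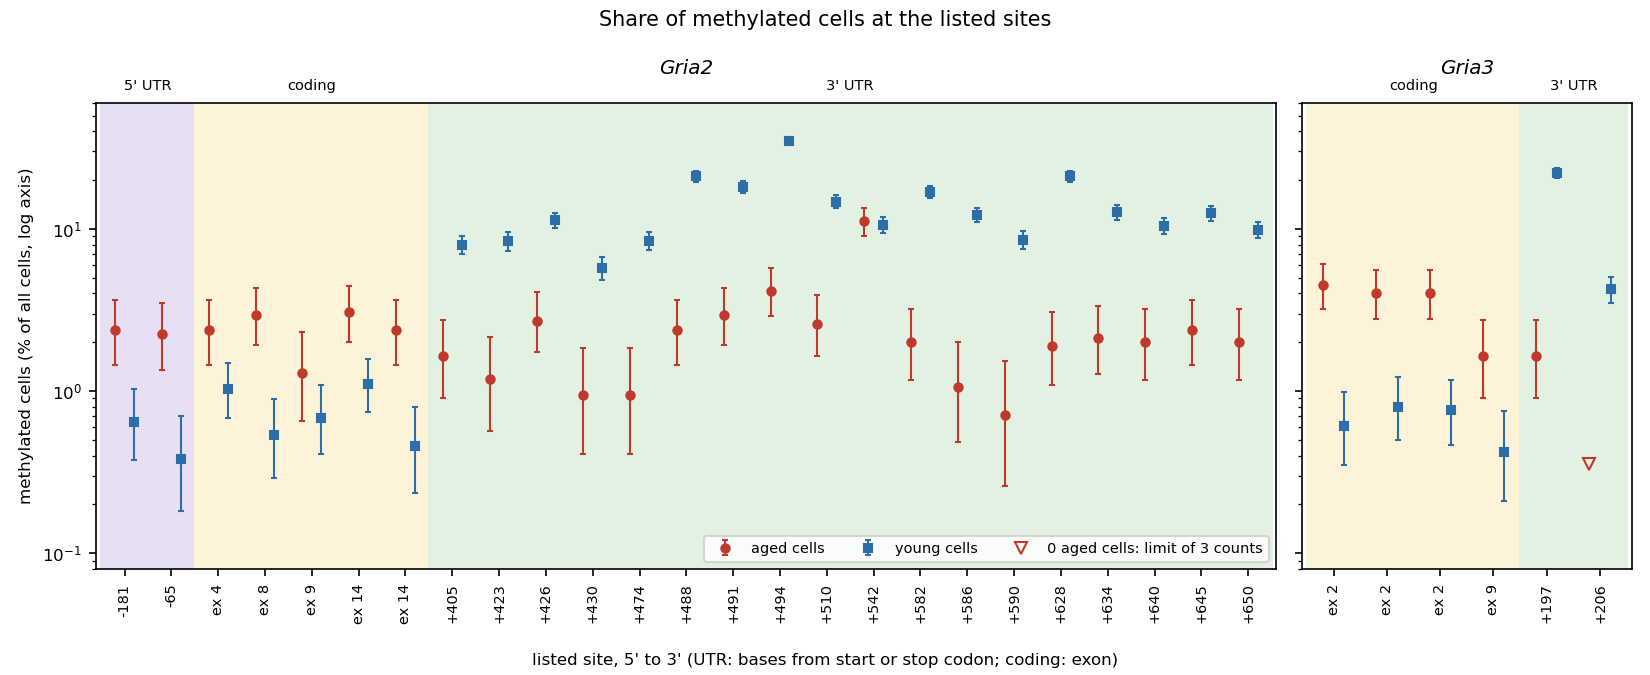
Share of methylated cells (percent of all cells, log axis) at the 31 listed sites of Gria2 (left) and Gria3 (right), ordered 5' to 3', in aged cells (circles) and young cells (squares); bars are exact binomial 95% intervals, and the open triangle marks the limit of 3 counts at a site with 0 marked aged cells. Aged values lie above young values in the 5' UTR and coding sequence and below them at 19 of 20 sites in the 3' UTRs.

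Over the 18 Gria2 sites the share ranged from 0.709% to 11.1% in aged cells with a median of 2.01%, and from 5.72% to 34.9% in young cells with a median of 11.7%. C-to-U within marked cells ranged from 4.40% to 60.3% in aged cells (median 30.99%) and from 8.25% to 20.9% in young cells (median 15.8%). The aged values rest on 6 to 94 marked cells per site and the young values on 150 to 916. Averaged over all cells, C-to-U was lower in aged cells at 18 of 18 sites, with a median 3.48-fold lower value, and 75.9% of all listed 3' UTR sites were lower by this measure. Within marked cells it was higher in aged than in young cells at 15 of 18 sites. That was so at 36.7% of listed 3' UTR sites, and at 52.0% of those with more than 60 marked cells. The 3 Gria2 sites where C-to-U within marked cells was lower lay 405, 430 and 542 bases after the stop codon. Both lower share and higher C-to-U per marked cell were found at 15 of 18 Gria2 sites and at 20.9% of listed 3' UTR sites. With a lower mean also required, which all 15 had, the value was 36.9% of listed 3' UTR sites with more than 60 marked cells. Across the 18 sites the aged and young shares had a Spearman rho of 0.62 and a Pearson r of 0.19, and without the site at 542 bases these were 0.71 and 0.79. The sites share cells and reads, so this describes only how similar the order of sites was at both ages.

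**Figure D2:**
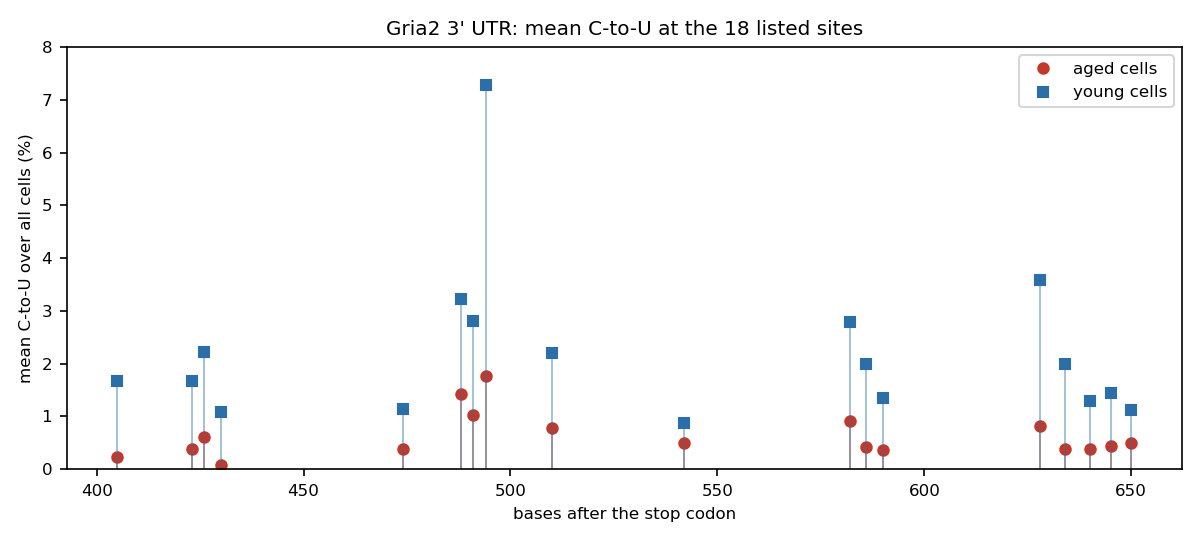
Mean C-to-U over all cells (percent) at the 18 listed sites of the Gria2 3' UTR against the distance from the stop codon in bases, in aged cells (circles) and young cells (squares). The aged value is below the young value at each of the 18 sites, and the highest value of either age, 1.76% in aged and 7.28% in young cells, is at 494 bases.

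Gria3 lies on the plus strand of the X chromosome (41400854 to 41678601), and its listed 3' UTR sites lay 197 and 206 bases after the stop codon, in exon 16 of 16 of Gria3-201. They are 51 and 42 bases from the end of the shorter transcript Gria3-202, while Gria3-201 continues for 2058 bases past the second. The first site, at position 41676534, was marked in 14 aged cells, 1.65% (0.908 to 2.76), and in 582 young cells, 22.2% (20.6 to 23.8). Its C-to-U within marked cells was 76.7% in aged and 44.4% in young cells. The mean over all cells was 1.27% in aged and 9.85% in young cells, and 2 of the 2055 listed sites had a larger decrease in percentage points. The share was 13.4-fold lower in aged cells, and the adjusted p in the authors' deposited table was 0.00151.

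The second Gria3 site, at position 41676543, had 0 marked cells among the 846 aged ones. The exact interval of that share reaches 0.435%, and the limit of 3 counts used for a count of 0 is 0.355%. In young cells it was marked in 111 cells, 4.23% (3.49 to 5.07), with 30.0% C-to-U within them. Both limits lie below the young interval, and the adjusted p in the authors' deposited table was 0.0363. Both Gria3 sites thus went the same way as the Gria2 3' UTR sites by share, and the first did so by C-to-U per marked cell.

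In coding sequence all 9 sites, 5 in Gria2 and 4 in Gria3, were marked in a larger share of aged than of young cells. Of all listed coding sites 94.7% had a larger share in aged cells, so the direction was that of the region as a whole. The intervals lay apart at 7 of the 9, against 63.6% of listed coding sites. By the mean over all cells 7 of the 9 were higher in aged cells, against 57.8% of listed coding sites, and by C-to-U within marked cells 2 of the 9 were, against 35.6%. All 9 had few marked cells, 25 to 55 over both ages, while the 3' UTR sites of both genes had 111 to 951. Among all listed coding sites 95.8% of those with at most 60 marked cells had a larger share in aged cells, and 92.0% of those with more. Among listed 3' UTR sites 67.3% of those with at most 60 marked cells had a larger share in aged cells. Of those with more than 60, 70.2% had a smaller share. The number sums 846 aged and 2623 young cells, so a site marked more in young cells passes 60 more readily. The split is thus tied to the direction itself, and this change of direction is no separate result. Between the coding and 3' UTR sites of these 2 genes, region and number of marked cells cannot be told apart.

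The largest increase of mean C-to-U in percentage points among the Gria2 sites was in exon 14, at position 80691397, in coding position 2329. It was marked in 26 aged cells, 3.07% (2.02 to 4.47), and in 29 young cells, 1.11% (0.742 to 1.58). C-to-U within marked cells was 63.1% in aged and 49.98% in young cells, and the mean over all cells was 1.94% in aged and 0.553% in young cells. Both parts of the mean were thus higher in aged cells, which made the mean 3.51-fold higher (adjusted p 3.10e-08 in the authors' deposited table). The other site of the exon lay 53 bases downstream, at position 80691344, where the edited C follows a G. It was marked in 2.36% (1.45 to 3.63) of aged and 0.457% (0.237 to 0.798) of young cells, but its C-to-U within marked cells was 1.84% in aged and 31.4% in young cells, and its mean was 3.30-fold lower in aged cells.

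Exon 14 of Gria2-201 (80691320 to 80691434) is 115 bases long and is absent from Gria2-202, which has an exon of 115 bases at 80690404 to 80690518 in its place, as in the flip and flop arrangement. The alternative exon of Gria2-202 held 0 listed sites, and so did both exons of the corresponding pair in Gria3. Whether transcripts with either exon differed in number between the ages was not measured, so the shares at the exon 14 sites are per cell and not per transcript form.

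The other Gria2 coding sites lay in exons 4, 8 and 9. In exon 4, at position 80732146, 2.36% (1.45 to 3.63) of aged and 1.03% (0.679 to 1.49) of young cells were marked, and the intervals overlapped slightly. In exon 8, at position 80710343, the shares were 2.96% (1.92 to 4.33) in aged and 0.534% (0.292 to 0.894) in young cells. In exon 9, at position 80709400, they were 1.30% (0.651 to 2.31) in aged and 0.686% (0.407 to 1.08) in young cells, again overlapping. C-to-U within marked cells was lower in aged cells at all 3, at 22.7%, 2.92% and 1.20% against 32.6%, 7.72% and 18.6% in young cells. The mean over all cells was therefore higher in aged cells in exons 4 and 8 and lower in exon 9, where the adjusted p in the authors' deposited table, 0.0433, was the largest of the 31 sites.

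In Gria3 the coding sites were a triplet in exon 2 and a site in exon 9. The triplet, at positions 41402865, 41402868 and 41402874, was marked in 4.49% (3.20 to 6.11), 4.02% (2.80 to 5.57) and 4.02% (2.80 to 5.57) of aged cells. In young cells the shares were 0.610% (0.349 to 0.989), 0.801% (0.496 to 1.22) and 0.762% (0.466 to 1.18). C-to-U within marked cells was lower in aged cells at all 3 sites, from 3.02% to 14.6% against 6.82% to 23.4% in young cells. The mean over all cells was nonetheless 1.69- to 3.28-fold higher in aged cells, since the larger share outweighed the lower C-to-U per marked cell.

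The exon 9 site of Gria3, at position 41596699, had the largest fold difference of the mean among the 30 sites with a marked aged cell. It was marked in 14 aged cells, 1.65% (0.908 to 2.76), and in 11 young cells, 0.419% (0.210 to 0.749). C-to-U within marked cells was 42.3% in aged and 10.6% in young cells, and the mean was 0.699% in aged and 0.0443% in young cells, 15.8-fold higher. The adjusted p in the authors' deposited table was 0.000561. With 25 marked cells in all, the site stands at the lowest number that the table lists. This site and the exon 14 site of Gria2 at 80691397 were the 2 of the 9 coding sites at which share and C-to-U per marked cell were both higher in aged cells.

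**Figure D3:**
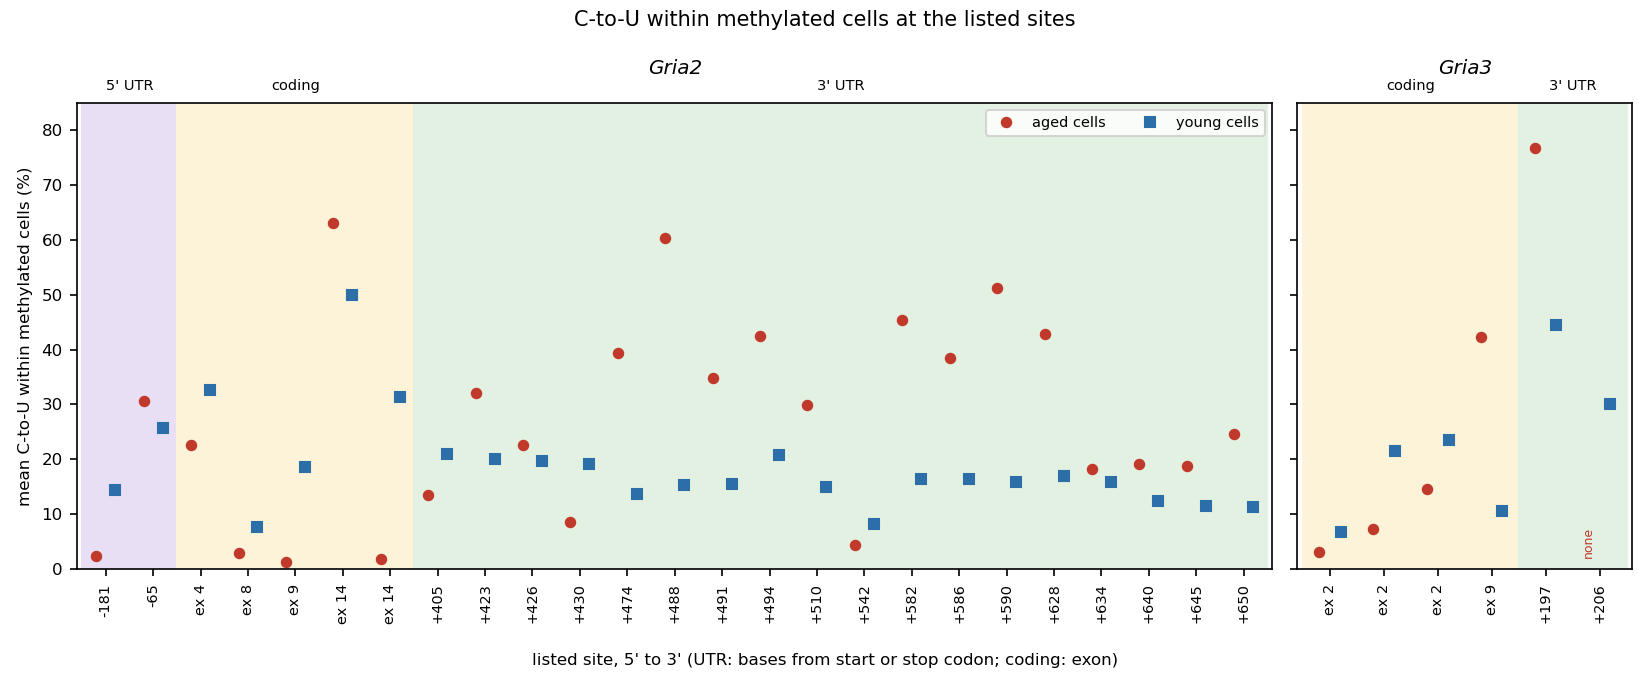
Mean C-to-U within methylated cells (percent) at the 31 listed sites of Gria2 (left) and Gria3 (right), ordered 5' to 3', in aged cells (circles) and young cells (squares); no aged value exists at the last Gria3 site, which had 0 marked aged cells. Aged values exceed young values at 16 of 19 sites in the 3' UTRs and at 2 of 9 coding sites.

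The 5' UTR of Gria2 held 2 sites in exon 1, both without an A before the edited C, and Gria3 had none listed there. At position 80802449, 65 bases before the start codon, 2.25% (1.36 to 3.49) of aged and 0.381% (0.183 to 0.700) of young cells were marked, and the mean over all cells was 0.686% in aged and 0.0981% in young cells. That is 6.99-fold higher in aged cells, the largest fold increase among the Gria2 sites. At position 80802565, 181 bases before the start codon, the shares were 2.36% (1.45 to 3.63) in aged and 0.648% (0.378 to 1.04) in young cells, while C-to-U within marked cells was 2.31% in aged and 14.3% in young cells. By share both went the way of the coding sites, as did 95% of listed 5' UTR sites, but their means went opposite ways.

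The comparison of transcript regions within each gene can be read from the ratio of aged over young values, in which the log2 ratio of the mean is the sum of the log2 ratios of share and of C-to-U within marked cells. For Gria2 the median log2 ratio of the share was 1.47 over coding sites and -2.60 over 3' UTR sites, a difference of 4.08. For C-to-U within marked cells the medians were -1.40 over coding and 1.01 over 3' UTR sites, a difference of -2.42 in the opposite direction. Only 1 of the 5 coding sites had at least 50 marked cells, and with sites of that number alone the second difference was -0.68. In Gria3 the median log2 ratio of the share was 2.36 over 4 coding sites, against -3.75 at the 3' UTR site with marked aged cells, and those of C-to-U per marked cell were -0.93 and 0.79. Over all listed sites the median share ratio was 3.10 for coding and 0.998 for 3' UTR sites, and the median ratio of C-to-U within marked cells was 0.651 and 0.624. Over coding sites the median share ratio was 2.78 in Gria2 and 5.14 in Gria3, and that of C-to-U within marked cells was 0.378 in Gria2 and 0.525 in Gria3, on the same side of 1 as the medians of all listed coding sites. Over the Gria2 3' UTR sites the median share ratio was 0.164 and the median ratio of C-to-U per marked cell was 2.02. Listed 3' UTR sites with more than 60 marked cells, as all 20 of these genes had, stood between, with a median share ratio of 0.462 and a median ratio of C-to-U per marked cell of 1.05. Choosing sites by that number itself favours a lower share in aged cells. No test of these contrasts was made, since the sites of a gene share cells and reads.

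**Figure D4:**
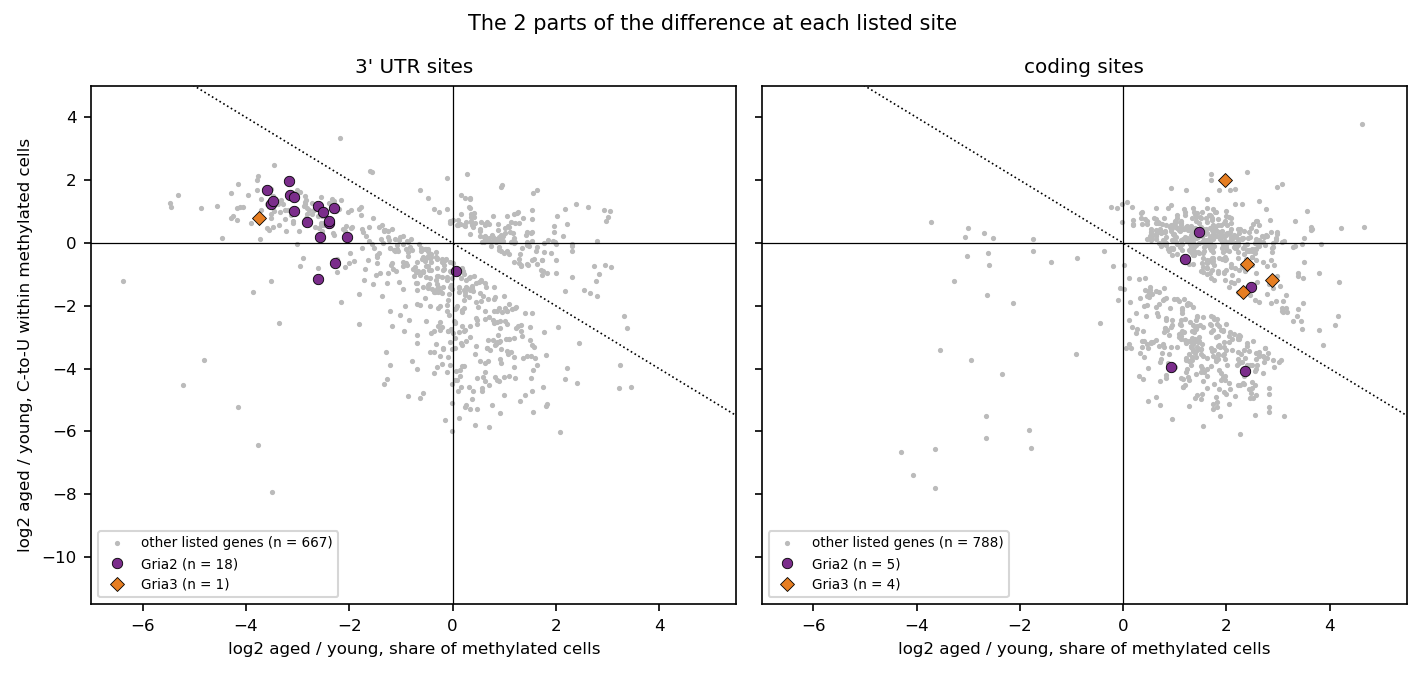
Log2 ratio of aged over young cells for the share of methylated cells (horizontal axis) and for C-to-U within methylated cells (vertical axis) at listed 3' UTR sites (left) and coding sites (right) with a marked aged cell. Circles are Gria2, diamonds Gria3 and grey points other genes; on the dotted line the mean over all cells is equal at both ages, and the band along it is empty because the table lists no absolute log2 ratio under 0.58. The Gria2 3' UTR sites cluster at lower share and higher C-to-U per marked cell, and the coding sites lie at higher share.

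By direction of the mean over all cells, 4 of 25 Gria2 sites and 4 of 6 Gria3 sites were higher in aged cells, against 41.5% of all listed sites. By share of marked cells 8 of 25 and 4 of 6 were higher, against 75.4% of all listed sites, and by C-to-U within marked cells 17 of 25 and 2 of 5, against 31.9%. Each measure thus gives Gria2 a different picture, and the 3' UTR sites, which make up 18 of its 25, set the count. Gria2 had the second most 3' UTR sites of any listed gene.

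The edited C was the last base of AAC or GAC, read on the gene's strand only, at 16 of 18 Gria2 3' UTR sites, 4 of 5 Gria2 coding sites, 2 of 2 Gria3 3' UTR sites and 3 of 4 Gria3 coding sites. Over the 1981 of the 2055 listed sites for which the context was counted, 72.0% had it, and over the 697 listed 3' UTR sites 74.3%. In the 246 bases that hold the Gria2 sites there are 43 C, of which 16 end an AAC or GAC, and all 16 are listed. The ends of that stretch were set by the listed sites. Among its other 27 C, 2 are listed. Over the whole 3' UTR of Gria2-202, which is 923 bases long, 41 C end an AAC or GAC, so the other 25 lay outside the stretch and were not listed. The coding sequence of Gria2-201 has 75 such C, of which 4 are listed, and that of Gria3-201 has 81, of which 3 are listed. A C that is not listed may be unedited, too rarely edited to enter the table or edited alike at both ages.

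The coding sequences of Gria2-201 and Gria3-201 were 70.5% identical over 2640 aligned bases. Of the 9 coding sites, 6 had an aligned base in the other gene, and 3, the exon 2 triplet of Gria3, fell in a gap. The aligned base was also a C at 4 sites and a C after an A at 3, among them the exon 14 site of Gria2 at 80691397 and the exon 9 site of Gria3, but at 0 of them was it listed. The 41 bases around each of the 31 sites occurred in no transcript of an annotated gene other than Gria2 and Gria3. The transcripts of these 2 genes were left out of that search, so neither was searched for the sites of the other.

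The genes whose regional pattern was most like that of Gria2 were ranked by the distance over 4 values, the median log2 ratios of share and of C-to-U within marked cells over coding and over 3' UTR sites. Of 23 other genes with at least 2 sites of each kind, Snap25, a SNARE protein of vesicle fusion, was nearest at a distance of 1.09, followed by Atp2b2, a plasma membrane calcium pump, at 1.25 and Vsnl1, a neuronal calcium sensor, at 1.71. The median distance was 3.27. For Gria3, with 72 genes that had at least 1 site of each kind, the nearest were Atp2b2 at 0.705, Gria2 at 1.54 and Snap25 at 2.19, and the median was 5.45. The ranking for Gria3 rests on 1 site in its 3' UTR.

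Among other genes of AMPA receptor function, neither of the 2 remaining subunit genes, Gria1 and Gria4, had a listed site, nor did any of 3 A-to-I editing enzyme genes. Of 29 names of auxiliary and extracellular partners 4 were listed, with 15 sites, all in 3' UTRs. These were Cacng2, the transmembrane regulator stargazin, Frrs1l, an assembly factor in the endoplasmic reticulum, the pentraxin receptor Nptxr and the secreted Olfm1. By share 10 of the 15 were higher in aged cells and 5 lower, and the intervals lay apart at 1 higher and 2 lower sites. Of all listed 3' UTR sites 50.8% had a lower share, and 27.3% a lower share with intervals apart. Most of the 15 had at most 60 marked cells over both ages. Of such listed 3' UTR sites 67.3% had a higher share in aged cells, so the count of 10 is near that background. All Gria2 3' UTR sites had more than 60, so they are not like for like with these. Of 32 trafficking partners 4 were listed with 8 sites, namely the clathrin adaptor subunit Ap2a2, the scaffold Dlg2, the kinesin Kif5c and the phosphatase Sacm1l, and 7 of the 8 had a higher share in aged cells. As 5 of the 8 were coding sites, of which 94.7% had a higher share over all listed genes, and 75.4% of all listed sites did, this count is near the background.

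Of 7 NMDA receptor genes, which encode the other main class of glutamate-gated channels at these synapses and were singled out after their values were seen, 3 were listed with 17 sites, Grin1, Grin2a and Grin2b. Their 9 sites in 3' UTRs had a lower mean in aged cells at 8, near the 75.9% of all listed 3' UTR sites that did. By share 4 of the 9 were lower and 5 higher in aged cells, against 50.8% lower over all listed 3' UTR sites. Intervals lay apart at 3 lower sites and 0 higher sites, and 27.3% of all listed 3' UTR sites were lower with intervals apart. Lower share with higher C-to-U per marked cell was found at 20.9% of all listed 3' UTR sites. Of the 9 it was found at 1, the Grin2b site at position 135729499. There 4.14% (2.90 to 5.71) of aged and 13.8% (12.5 to 15.1) of young cells were marked, with 89.6% C-to-U within aged and 70.5% within young marked cells. Summed over both ages, marked cells at the 9 sites were fewest at the Grin2b site at 135730307, with 11 aged and 21 young. They were most at 135729499, with 35 aged and 361 young. Aged marked cells alone ranged from 1, at the Grin1 site at 25291960, to 85, at the Grin2a site. The Gria2 3' UTR sites had 158 to 951 over both ages, so the counts of the 2 sets are not like for like. Whether these genes and Gria2 differ was not tested.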

How the data were processed

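Single-cell libraries from cortex of aged APOBEC1-YTH mice were read through a table of sites that the authors deposited. The submitters' processing notes name STAR 2.7.5 and mm10, and the series' design text names Bullseye for finding C-to-U sites. The sources used here do not state the test behind the p-values, the read filters or the handling of molecular identifiers. Per the file headers and tests on the values, the deposited table holds the percent of cells methylated, the C-to-U fraction as a mean over all cells and over methylated cells (printed here as percent), the count of methylated cells, the authors' p-value and adjusted p-value, and a log2 of young over aged means. Its sign was turned here, so positive ratios mean higher in aged cells. All 8 libraries form 1 group, and no deposited value separates them.

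Positions count from 1. Read from 0 in the table, all 31 sites had a C on the gene's strand, and 3 in the other reading. Regions came from the GENCODE M21 transcript ranked first among those with an exon at the site (coding, then principal isoform, basic set, support level and length). Sequences came from GENCODE M21 transcripts. Intervals used scipy 1.17.1, and the alignment biopython 1.88. Counting was tested on simulated data. The genes described in full, the lists of partners, and the rule for like genes were chosen with earlier results of these data known, and no choice is independent of them. Named sites were the largest decrease, the largest increase and the most marked site of each region in each gene, the sites in exons of the flip and flop pair, and their close neighbours, and the remaining sites were then given in less detail. The list of auxiliary partners holds Ckamp44, an older name of Shisa9, as a separate entry. Alternatives were the measure, a minimum of 50 methylated cells, an adjusted p under 0.01, an absolute log2 ratio of at least 1, joining of sites at most 10 bases apart, another transcript, 0.5 cells added, and the mean in place of the median. Depth per cell and expression were not analysed here, and some listed genes and sequences are not reported here.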

Additional observations from a re-analysis of the deposited data

How the results depend on the processing

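The count of Gria2 sites with a higher mean in aged cells was 4 as reported, 8 by share, 17 by C-to-U within marked cells and 1 with at least 50 marked cells. For Gria3 it was 4, against 2 by C-to-U within marked cells and 2 with close sites joined. Gria2 coding sites with a higher share numbered 5, against 1 with at least 50 marked cells and 3 in another coding transcript, which lacks exon 14. Those of Gria3 numbered 4, against 2 with close sites joined. The counts in 3' UTRs, 1 in Gria2 and 0 in Gria3, were identical under every setting run for them, but those settings could not change them. All 20 sites had at least 111 marked cells and lay in the 3' UTR of another coding transcript too. The 1 Gria2 site had no listed neighbour within 10 bases, and joining cannot raise a count of 0. The coding minus 3' UTR difference of the log2 share ratio was 4.08 in Gria2, against 4.04 with 0.5 cells added, 4.26 with close sites joined and 4.33 by the mean. In Gria3 it was 6.11, against 7.28, 5.90 and 6.14, and 6.14 with at least 50 marked cells. For C-to-U within marked cells it was -2.42 in Gria2, against -0.68 with at least 50 marked cells and -2.67 by the mean. In Gria3 it was -1.72, against -1.96 and -1.14, and -0.57 with close sites joined. No difference turned its sign. Fewer sites remain under the minimum and the joining by construction, and otherwise the cause was not tested. No paired analysis was possible because the table gives 1 value per age and all libraries share a group. The number of aged cells limits precision, since 6 to 94 marked cells stand behind each aged value in the Gria2 3' UTR.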
